A study of Mus musculus with 12 samples.

Results

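The autophagy and lysosome genes described here are 36 genes chosen by name: 5 cargo receptors, 5 genes of the ATG8 family, 7 genes of initiation and nucleation, 5 of ATG8 and ATG12 conjugation, the 3 MiT/TFE transcription factors, 4 lysosomal membrane proteins and 7 lumenal hydrolases and carriers. All 36 were listed in every library, among 18876 genes listed in any. These genes, and the further lists and motifs below, were chosen with earlier results of these data known. Their shares beside those of all genes are therefore a description. RNA was sequenced from primary oligodendrocyte progenitor cells of wild-type mouse brain, the dividing glial cells that give rise to myelinating oligodendrocytes, after 12 h in 1 of 4 conditions with 3 libraries each. The vehicle group received DMSO. The hemin group received 50 µM hemin, the iron-containing porphyrin released from blood. The IL-10 group received 50 µM hemin with 10 ng/mL of the cytokine IL-10, and the stattic group received both of these with 2.5 µM stattic, an inhibitor of the transcription factor STAT3 that acts downstream of IL-10. Every group other than vehicle therefore carries hemin. IL-10 without hemin and stattic without IL-10 were not analysed here. Strain, age and sex are not given in the sources used here, nor whether the numbered replicates came from separate animals or cultures, so the p-values measure the spread between these libraries, which may be technical.

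Autophagy encloses part of the cytoplasm in a double membrane and delivers it to the lysosome. The ULK kinases and the Beclin 1 lipid kinase complex start the membrane, and a ubiquitin-like conjugation system attaches ATG8 proteins (the LC3 and GABARAP proteins) to it. Cargo receptors such as p62, the product of Sqstm1, bind ubiquitinated cargo and ATG8 together, and p62 itself is degraded with its cargo. TFEB, TFE3 and MITF are transcription factors that bind E-box sequences before many lysosomal genes, and Sqstm1 is a known target of the oxidant-responsive factor NRF2, as is Hmox1, the gene of the heme oxygenase that breaks heme down. RNA levels do not measure autophagic flux.

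Promoter sequence is shown for 5 of the genes: the 4 that hold a longer E-box, and Sqstm1, the gene with the largest change. Of the 36 genes, 30 matched a RefSeq promoter table of the mouse build GRCm38.p6, whose windows hold 250 bases before and 50 after an annotated start. The motifs searched on both strands were the E-box CACGTG, the longer TCACGTGA bound by MiT/TFE factors, which contains the E-box, the antioxidant response core TGACNNNGC, the AP-1 motif TGANTCA and the heat shock motif GAANNTTC. The E-box CACGTG stood in the windows of 8 of the 30 genes (26.7%), which are 21.6% of the 37 member windows, and in 7.15% of all 32851 windows. Those 8 genes were Atg3, Atg5, Atg7, Ctsd, Ctsl, Gla, Lamp1 and Mcoln1. Of the 8, Atg3, Ctsd and Gla were called changed in at least 1 comparison below, as were 14 of all 36 members. The other 5 were called in none. TCACGTGA stood in 4 member windows (10.8%) against 0.974% of all windows. The form with a further base on each side was in 0 member windows, against 0.326% of all. TGACNNNGC stood in 7 member windows (18.9%) against 12.4% of all windows, TGANTCA in 2 (5.41%) against 7.81%, and GAANNTTC in 1 (2.7%) against 7.86%. Below are the 250 bases before the start, 5′ to 3′ on the gene's strand, with E-boxes in capitals and the whole of TCACGTGA in capitals where it is present. Gla lies at chrX:134601006-134601255 (minus strand), Ctsd at chr7:142387828-142388077 (minus strand), Atg3 at chr16:45158579-45158828 (plus strand), Mcoln1 at chr8:3500269-3500518 (plus strand) and Sqstm1 at chr11:50210821-50211070 (minus strand).
Gla: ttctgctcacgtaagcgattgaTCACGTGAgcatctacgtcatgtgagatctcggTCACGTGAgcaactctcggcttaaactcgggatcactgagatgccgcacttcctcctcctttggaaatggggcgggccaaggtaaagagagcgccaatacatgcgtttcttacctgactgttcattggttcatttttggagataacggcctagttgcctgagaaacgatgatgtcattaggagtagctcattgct
Ctsd: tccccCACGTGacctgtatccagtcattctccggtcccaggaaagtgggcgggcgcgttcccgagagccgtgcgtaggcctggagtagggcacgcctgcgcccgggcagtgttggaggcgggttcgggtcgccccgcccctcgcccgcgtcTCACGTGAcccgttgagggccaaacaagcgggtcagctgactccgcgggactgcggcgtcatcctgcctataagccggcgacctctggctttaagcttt
Atg3: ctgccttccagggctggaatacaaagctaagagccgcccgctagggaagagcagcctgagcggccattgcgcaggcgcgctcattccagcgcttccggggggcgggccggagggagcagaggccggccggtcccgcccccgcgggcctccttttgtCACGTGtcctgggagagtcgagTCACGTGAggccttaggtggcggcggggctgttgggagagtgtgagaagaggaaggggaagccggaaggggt
Mcoln1: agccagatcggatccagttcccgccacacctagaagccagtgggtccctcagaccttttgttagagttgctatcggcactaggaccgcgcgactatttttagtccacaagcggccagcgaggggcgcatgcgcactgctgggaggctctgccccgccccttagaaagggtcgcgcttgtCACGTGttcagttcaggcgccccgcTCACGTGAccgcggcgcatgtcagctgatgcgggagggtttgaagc
Sqstm1: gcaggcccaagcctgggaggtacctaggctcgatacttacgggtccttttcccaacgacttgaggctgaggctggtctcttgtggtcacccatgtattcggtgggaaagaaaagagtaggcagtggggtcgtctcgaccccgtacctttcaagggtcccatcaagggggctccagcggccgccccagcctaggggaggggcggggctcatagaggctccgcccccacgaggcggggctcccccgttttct
Gla held TCACGTGA at 2 positions, starting 228 and 195 bases before the start. Ctsd, Atg3 and Mcoln1 held it once, 99, 72 and 46 bases before the start. No searched motif was found in the Sqstm1 window, which says only that these letters are not in this window. A match is a description of the sequence and not evidence of binding.

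Library totals ran from 9404448 to 10266653 expected counts, and 13967 genes passed the low-count filter, all 36 members among them. Levels below are CPM, each library's counts brought to a common total with edgeR's TMM factors, and a gene is called changed when its p from edgeR's quasi-likelihood fit, after Benjamini-Hochberg adjustment over all genes tested, is under 0.05. Hmox1 ran from 24.5 to 55 CPM in vehicle and from 2164 to 10945 CPM in the 9 libraries with hemin. In each of the 4 groups replicate 3 held the lowest level. The 7 progenitor markers were all listed, with summed levels from 4426 to 5825 CPM in vehicle, 1729 to 2451 in hemin, 1367 to 2230 with IL-10 and 695 to 1731 with stattic. Markers of astrocytes were also abundant in vehicle, with sums from 2097 to 5734 CPM over 7 genes. These ran from 1579 to 2193 CPM with hemin, 757 to 1939 with IL-10 and 890 to 3165 with stattic. The 6 neuron markers summed to 830 to 1085 CPM in vehicle, 783 to 1118 with hemin, 699 to 1108 with IL-10 and 644 to 1063 with stattic. Of these 6, 2 were called higher against vehicle in each group (33.3%, beside 11.7%, 12.1% and 14.7% of all genes). In bulk RNA, fewer cells of a type and less RNA per cell cannot be told apart.

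Against vehicle, hemin raised 5 of the 36 genes and lowered 1. Sqstm1, Gla, Atg16l1, Hexa and Tfe3 rose (13.9% of members, against 11.7% of all genes tested called higher) and Ulk2 fell (2.78% of members, against 9.15% of all genes called lower). With IL-10 added, 8 members rose and 1 fell (22.2% and 2.78%, against 12.1% and 8.81% of all genes). With stattic added as well, 12 rose and 1 fell (33.3% and 2.78%, against 14.7% and 10.2%). The median log2 change of the 36 genes was 0.33, 0.48 and 0.63 in the 3 comparisons, beside 0.031, 0.003 and 0.099 over all genes tested. The comparisons share the 3 vehicle libraries, so they are not independent of each other, and the differences between these counts were not tested. With hemin, all 3 libraries lay above all 3 vehicle libraries for 15 members and below them for 5, beside 25.6% and 24.5% of all genes; the numbers were 14 and 4 with IL-10 (24.9% and 24.3%) and 19 and 3 with stattic (21.5% and 19.6%). In all, 14 genes were called in at least 1 comparison, 4 of them in all 3 (Sqstm1, Gla, Atg16l1 and Ulk2), and 22 in none. The same counts over all genes were not taken, so 14 and 4 are a description only.

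Single libraries moved these counts and those of all genes. Over all genes, calls higher with hemin went from 1639 of 13967 to 803 of 14256 without vehicle replicate 1. They were 867 of 14225 without hemin replicate 2 and 2287 of 14260 without stattic replicate 3. With IL-10 they went from 1696 to 988 of 14265 without vehicle replicate 2. They were 2403 of 14260 without stattic replicate 3 and 1572 of 14250 without IL-10 replicate 3. With stattic they went from 2048 to 1026 of 14277 without vehicle replicate 3. For hemin, 2 members rose when vehicle replicate 1 or hemin replicate 2 was left out. The number was 3 on leaving out vehicle replicate 2, the third vehicle library or hemin replicate 1. It was 11 without stattic replicate 3, which enters through the shared estimate of the spread, and Nbr1 was then called lower beside Ulk2. For IL-10 against vehicle, 4 rose without vehicle replicate 2, the third vehicle library or IL-10 replicate 2, and 5 without vehicle replicate 1 or IL-10 replicate 1. The same count was 12 without IL-10 replicate 3 and 14 without stattic replicate 3, and without IL-10 replicate 2 edgeR called no member lower (adjusted p = 0.0514 for Ulk2). For stattic against vehicle, 7 rose without vehicle replicate 3 and 8 without vehicle replicate 1. Scaling to library totals in place of TMM moved the median change of all genes to -0.072, -0.125 and -0.135 and that of the members to 0.22, 0.35 and 0.38.

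**Figure D1:**
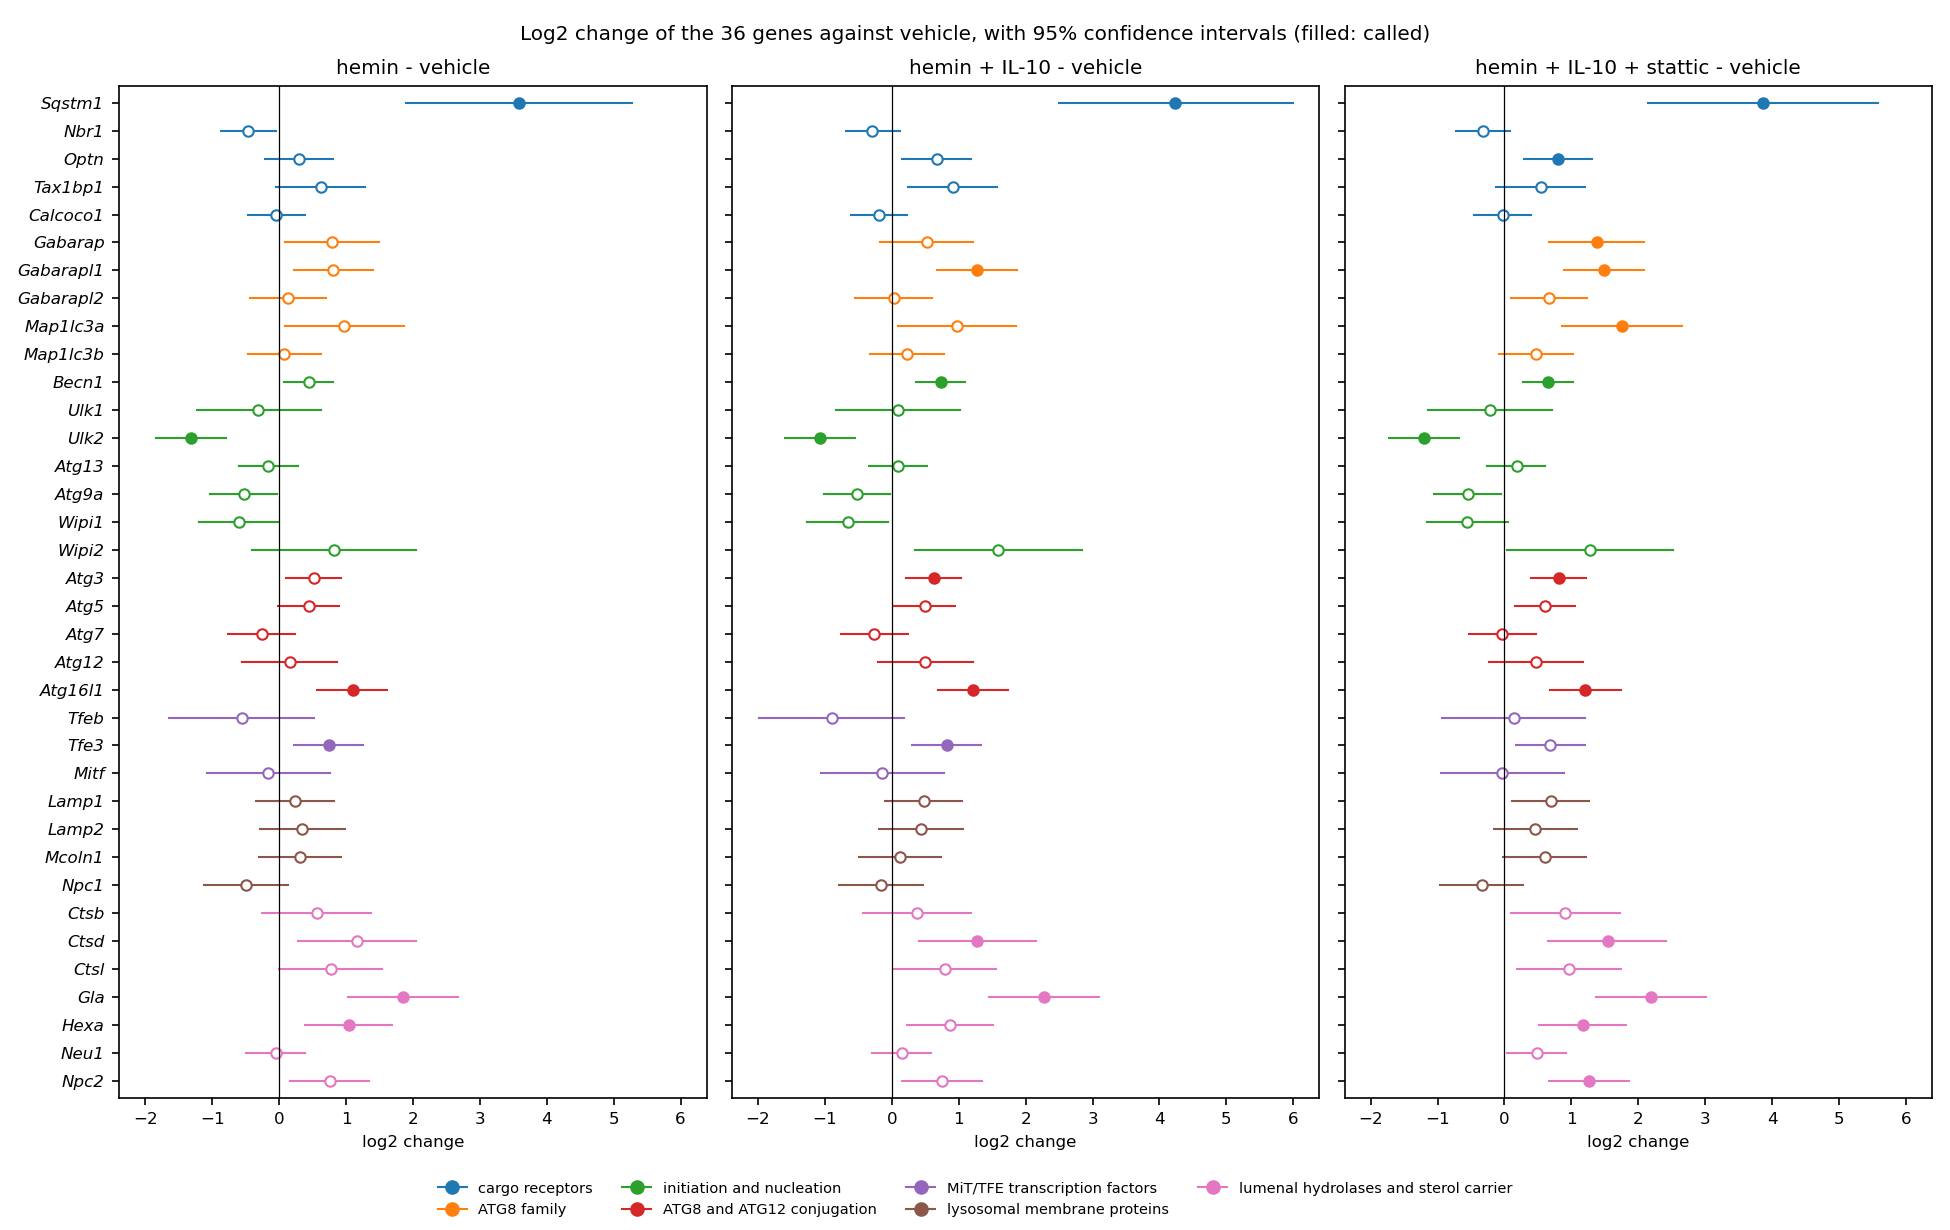
Log2 change of each of the 36 genes against vehicle (x axis) in the hemin, IL-10 and stattic groups, with 95% confidence intervals from edgeR's fit over 12 libraries and colours for the gene groups; filled points are called. Sqstm1 lies farthest to the right in all 3 panels, at 3.58, 4.24 and 3.87, and Ulk2 farthest to the left of the called genes.

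Among the cargo receptors, Sqstm1 was called in all 3 comparisons and rose by the most of the 36 genes. It stood at 197, 248 and 183 CPM in vehicle and at 3150, 3626 and 756 CPM with hemin. With IL-10 it reached 6665, 4319 and 932 CPM, and with stattic 5478, 2365 and 1333 CPM. Every library with hemin lay above every vehicle library, and replicate 3 was the lowest of each hemin-containing group. Sqstm1 rose by 3.58 on the log2 scale with hemin (SE 0.78, adjusted p = 0.00904), an 11.98-fold difference, by 4.24 (SE 0.80, adjusted p = 0.00483) with IL-10 and by 3.87 (SE 0.79, adjusted p = 0.00619) with stattic. These calls held under all 24 alternative settings. Hmox1 was also lowest in replicate 3, at 8208, 6294 and 2502 CPM with hemin. In vehicle, replicate 3 was the lowest too, for Sqstm1 (183 CPM) and for Hmox1 (24.5 CPM). Whether exposure or anything else differed between replicates was not tested. On the length-corrected FPKM scale, Sqstm1 ranked 5 among the 36 genes in vehicle at 119 ± 19.6 FPKM (SD, n = 3) and 1 in each group with hemin, at 1302 ± 776, 2033 ± 1435 and 1529 ± 1136 FPKM.

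Of the other 4 cargo receptors, 1 was called, Optn in the stattic group. Optn, which encodes the mitophagy receptor optineurin, stood at 21.6, 18.1 and 17.1 CPM in vehicle and 19.3, 24.5 and 26.3 with hemin, which overlap. It stood at 32.3, 34.4 and 23.7 CPM with IL-10 and at 33.3, 38.5 and 27 with stattic, all above vehicle. Optn rose against vehicle in the stattic group, by 0.80 (SE 0.23, adjusted p = 0.0283 in edgeR's test), a call lost without any 1 of the vehicle libraries or without stattic replicate 2 (adjusted p from 0.0595 to 0.102). It was also lost under library totals (0.111), in the limma fits on FPKM (0.203 to 0.247) and with only the 2 groups compared (0.0752). Nbr1, a p62-related receptor, ran from 285 to 309 CPM in vehicle and from 208 to 227 with hemin, a log2 difference of -0.46 that did not pass (adjusted p = 0.0992). Tax1bp1, a receptor for ubiquitinated aggregates, differed by 0.62, 0.91 and 0.55, with adjusted p of 0.171, 0.0524 and 0.208. Calcoco1, a receptor for reticulum and Golgi membranes, ran from 40.5 to 55.8 CPM over all 12 libraries and differed by -0.04, -0.19 and -0.02. Summed over the 5 receptors, FPKM went from 277 ± 15.9 in vehicle to 1460 ± 779, 2214 ± 1466 and 1680 ± 1180 (SD, n = 3). Of these sums Sqstm1 alone held 119 FPKM in vehicle and 1302, 2033 and 1529 in the groups with hemin, so the rise is that of Sqstm1.

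**Figure D2:**
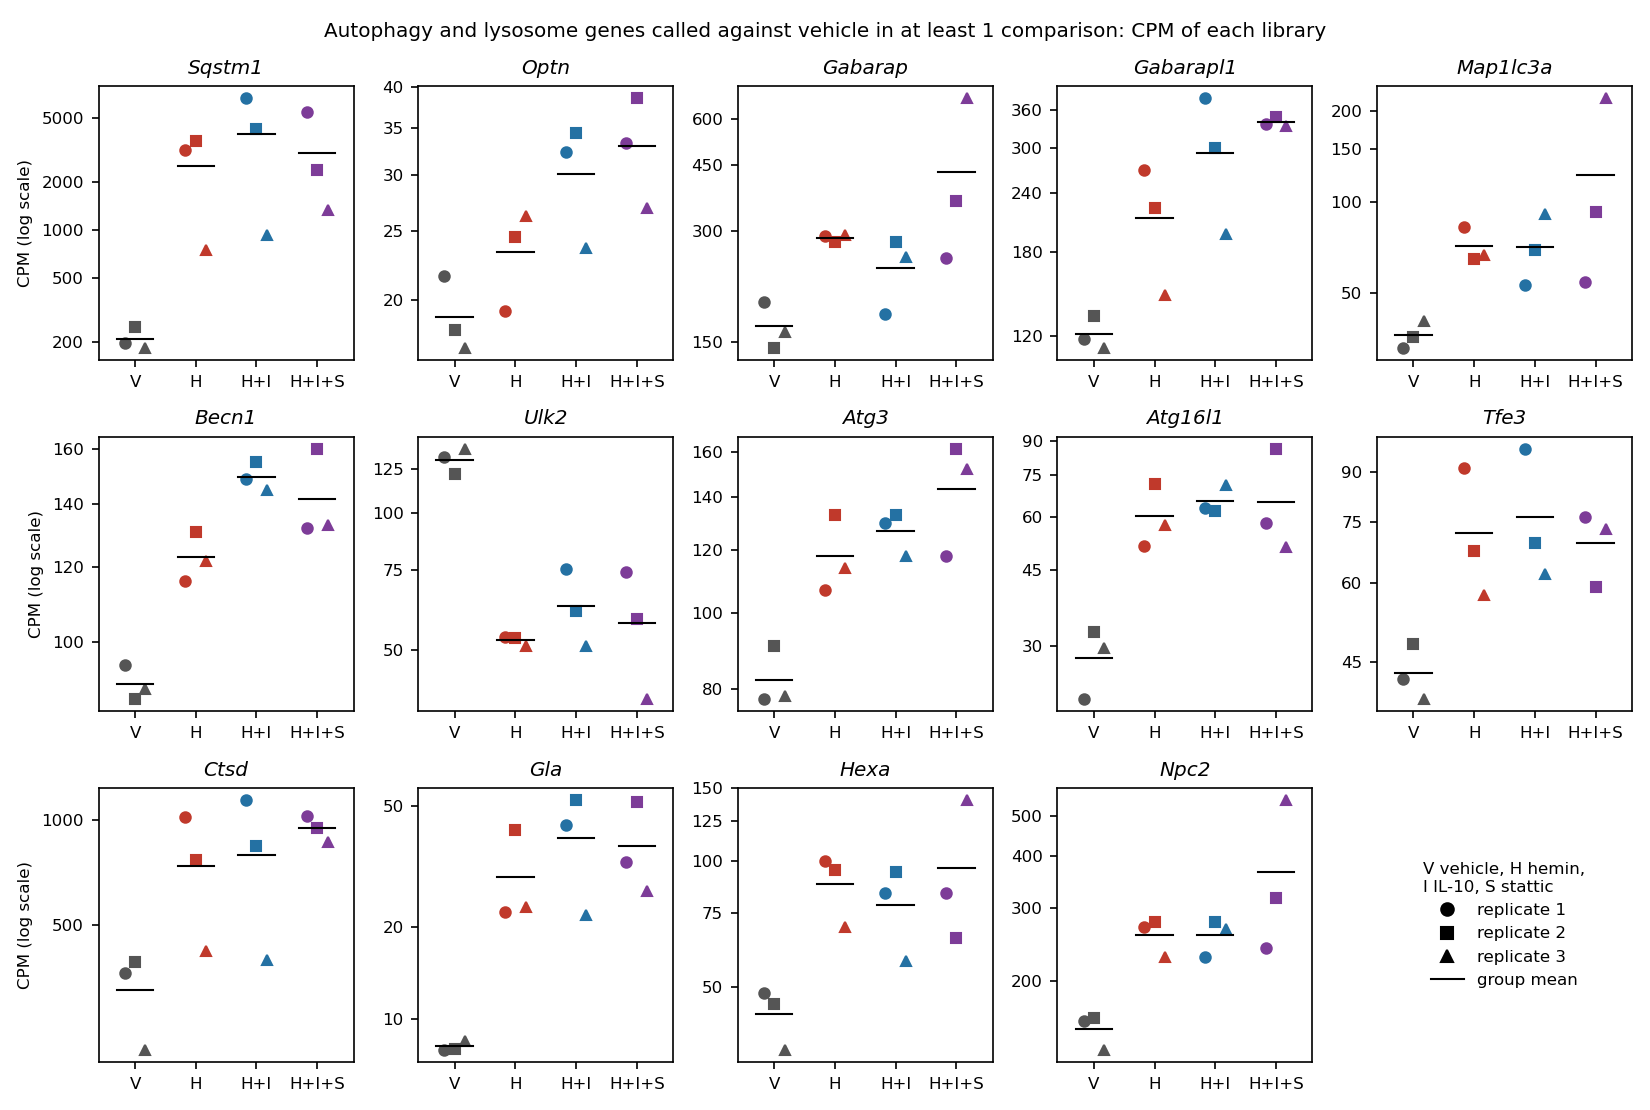
CPM on a log axis for the 14 genes called against vehicle in at least 1 comparison; each point is a library, with the marker shape giving the replicate number and the line the group mean. The vehicle libraries of Ulk2 lie above all 9 libraries with hemin and those of Sqstm1, Gla and Atg16l1 below them; stattic replicate 3 stands apart for Gabarap and Map1lc3a, at 682 and 220 CPM.

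No gene of the ATG8 family was called with hemin alone; Gabarapl1 was called with IL-10, and Gabarapl1, Gabarap and Map1lc3a with stattic. Gabarapl1 stood at 118, 132 and 113 CPM in vehicle and at 269, 223 and 146 with hemin. It stood at 381, 299 and 197 CPM with IL-10 and at 336, 348 and 333 with stattic. All 9 libraries with hemin lay above vehicle, and replicate 3 was the lowest of each of the 4 groups. The log2 change of Gabarapl1 was 0.81 with hemin (SE 0.27, adjusted p = 0.052), 1.27 with IL-10 (SE 0.27, adjusted p = 0.00878) and 1.49 with stattic (SE 0.28, adjusted p = 0.00399). The hemin value passed without hemin replicate 3 (adjusted p = 0.0276), IL-10 replicate 1 (0.0463), IL-10 replicate 3 (0.0342) or stattic replicate 3 (0.0437). It also passed by DESeq2, with the replicate block and with only the 2 groups compared, 7 of the 24 alternatives in all.

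Gabarap, whose product acts late in autophagosome formation, stood at 193, 145 and 160 CPM in vehicle and 290, 279 and 292 with hemin. It stood at 179, 280 and 255 CPM with IL-10, overlapping vehicle, and at 253, 362 and 682 with stattic, where replicate 3 was far above the others. Its log2 change was 0.79, 0.52 and 1.38, the last with SE 0.33 and adjusted p = 0.0117. Map1lc3a, which encodes LC3A, stood at 32.8, 35.7 and 40.3 CPM in vehicle and at 82.6, 64.5 and 66.4 with hemin. It stood at 52.9, 69.3 and 91.1 CPM with IL-10 and at 54.4, 92.6 and 220 with stattic. All 9 libraries with hemin lay above vehicle, again with stattic replicate 3 the highest. The log2 change of Map1lc3a was 0.97, 0.97 and 1.75, and it was called in the stattic group (SE 0.41, adjusted p = 0.0117). Hemin against vehicle passed for Map1lc3a under 6 of the 24 alternatives. Among them were edgeR's fits without stattic replicate 1 (adjusted p = 0.0431) or stattic replicate 3 (0.0143). The others were the length correction (0.68, 0.0456), the replicate block, leaving out the 2 libraries of steepest length trend, and only the 2 groups compared. Gabarap passed under 3, without stattic replicate 3 (0.0164), without the 2 libraries of steepest length trend, and with only the 2 groups compared. The stattic call of Gabarap was lost with only the 2 groups compared (0.0511).

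The other two ATG8 genes were not called. Gabarapl2 stood at 76.4, 75.6 and 78.5 CPM in vehicle and at 88.4, 87 and 76.7 with hemin. It stood at 67.4, 80.4 and 86.5 CPM with IL-10 and at 76.6, 111 and 178 with stattic, so that every group overlapped vehicle. Map1lc3b, which encodes LC3B, the usual autophagosome marker, stood at 149, 146 and 122 CPM in vehicle and at 161, 162 and 116 with hemin. It stood at 193, 194 and 103 CPM with IL-10 and at 188, 180 and 207 with stattic, the last above every vehicle library. Their log2 changes with hemin were 0.13 and 0.08, and both changed sign under some settings, Gabarapl2 under the length correction (-0.18) and Map1lc3b under library totals (-0.03). GABARAP and LC3 genes are close relatives, and how reads shared between relatives were divided rests on the authors' estimated counts.

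The share of each gene in the summed FPKM of the 5 is given as a description. Gabarapl2 made up 19.6, 21.1 and 21.9% in vehicle and 14.4, 15.4 and 15% with hemin. It made up 12.4, 13.1 and 16.2% with IL-10 and 13, 14.7 and 14.6% with stattic, all below vehicle. The share of Map1lc3b was 13.8 ± 1.28% in vehicle and 9.49 ± 1.1% with hemin (SD, n = 3), with no overlap, while its IL-10 libraries (7.1 to 13.1%) overlapped vehicle (12.5 to 15%). Gabarap was the largest of the 5 by FPKM in every library other than IL-10 replicate 1, where Gabarapl1 stood at 36.8% and Gabarap at 28.7%. With 3 libraries a group an exact permutation test of a share cannot give a two-sided p below 0.1, and no other test of the shares was run. The summed FPKM was 466 ± 25.4 in vehicle, 656 ± 41.2 with hemin, 646 ± 60.5 with IL-10 and 898 ± 240 with stattic.

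**Figure D3:**
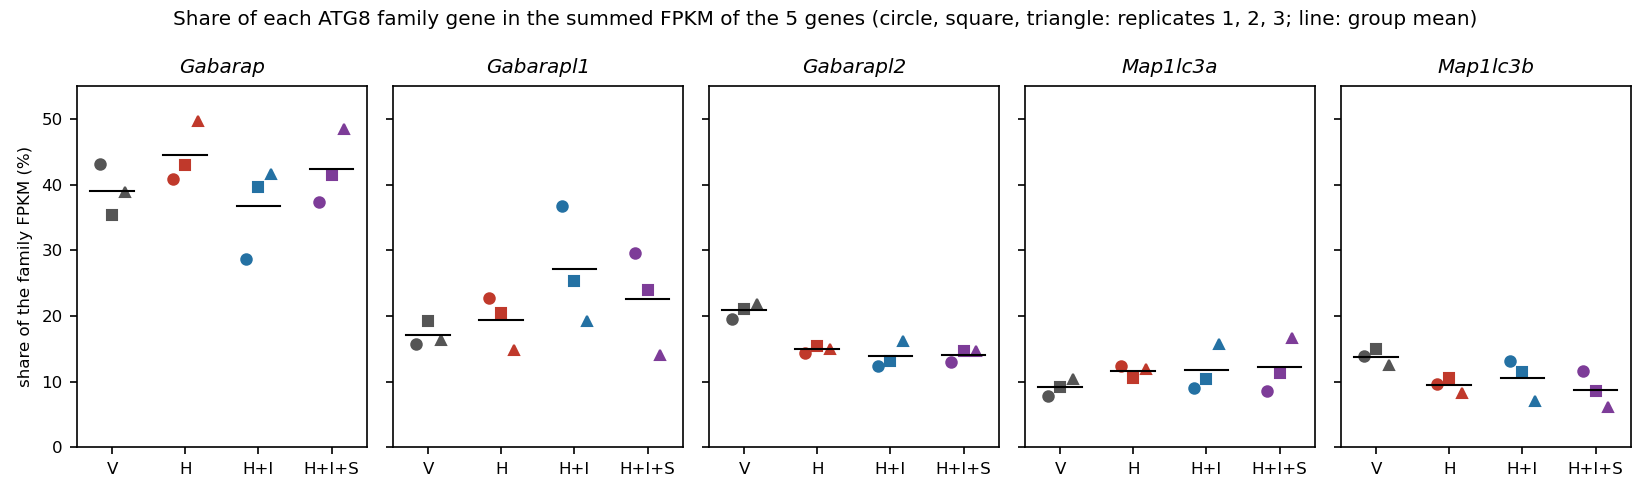
Share of each ATG8 gene (y axis, %) in the summed FPKM of the 5 genes, by group; points are libraries with the marker shape giving the replicate, lines are group means. For Gabarapl2 the 3 vehicle libraries, at 19.6 to 21.9%, lie above all 9 libraries with hemin, at 12.4 to 16.2%.

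Of the genes of initiation and nucleation, Ulk2 fell and Becn1 rose, and the other 5 were not called. Ulk2, 1 of the paired kinases that start autophagy, stood at 133, 122 and 138 CPM in vehicle and at 53.5, 53.1 and 50.9 with hemin. It stood at 75.5, 61 and 51 CPM with IL-10 and at 74, 58.6 and 39 with stattic. All 9 libraries with hemin lay below vehicle. Its log2 change was -1.32 with hemin (SE 0.24, adjusted p = 0.00386), -1.07 with IL-10 (SE 0.24, adjusted p = 0.0101) and -1.20 with stattic (SE 0.24, adjusted p = 0.00545); the IL-10 call was lost without IL-10 replicate 2 (adjusted p = 0.0514). Its relative Ulk1 was not called, at 60 to 65.8 CPM in vehicle and 38.8 to 60.7 with hemin (log2 change -0.31, adjusted p = 0.644).

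Becn1, which encodes Beclin 1, stood at 94.7, 87.1 and 89.3 CPM in vehicle and at 116, 131 and 122 with hemin. It stood at 149, 155 and 145 CPM with IL-10 and at 132, 160 and 133 with stattic. The IL-10 libraries lay above both the vehicle and the hemin libraries. By edgeR's test the log2 change of Becn1 was 0.44 with hemin (adjusted p = 0.0814), 0.73 with IL-10 (SE 0.17, adjusted p = 0.0121) and 0.65 with stattic (SE 0.17, adjusted p = 0.0175). The IL-10 call was lost without vehicle replicate 2 (adjusted p = 0.0501), vehicle replicate 3 (0.0508) or IL-10 replicate 2 (0.0544), and in the limma fits on FPKM (0.0525 to 0.0656). The stattic call was lost without any 1 vehicle library or stattic replicate 2 (0.0516 to 0.0677) and under library totals (0.113), the length correction (0.0816), the limma fits on FPKM (0.158 to 0.187) and with only the 2 groups compared (0.0811). Wipi2, a phosphoinositide-binding protein that recruits the conjugation machinery, had wide spread: 229, 195 and 72.2 CPM with hemin and 449, 297 and 99.1 with IL-10, against 82.9 to 104 in vehicle. Its log2 changes of 0.82, 1.59 and 1.28 did not pass (adjusted p = 0.328, 0.0685 and 0.119). Wipi1, Atg9a and Atg13 differed by -0.60, -0.53 and -0.16 with hemin, none called.

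In the conjugation system Atg16l1 was called in all 3 comparisons and Atg3 in the IL-10 and stattic groups. Atg16l1, the part of the ligase that places ATG8 on the membrane, stood at 22.5, 32.2 and 29.6 CPM in vehicle and at 51.4, 71.4 and 57.5 with hemin. It stood at 63, 62 and 71.2 CPM with IL-10 and at 57.9, 86.2 and 51 with stattic. No library with hemin fell within the vehicle range. The log2 rise of Atg16l1 was 1.10 with hemin (SE 0.24, adjusted p = 0.00967), 1.22 with IL-10 (SE 0.24, adjusted p = 0.00602) and 1.21 with stattic (SE 0.24, adjusted p = 0.00557). The hemin call was lost without vehicle replicate 1 (0.0517) or hemin replicate 2 (0.0521).

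Atg3, the E2-like enzyme that transfers ATG8 to lipid, stood at 77.8, 90.7 and 78.5 CPM in vehicle and at 107, 133 and 114 with hemin. It stood at 130, 133 and 118 CPM with IL-10 and at 118, 161 and 152 with stattic, all above vehicle. Its log2 change was 0.52 with hemin (adjusted p = 0.0705), 0.63 with IL-10 (SE 0.19, adjusted p = 0.0356) and 0.81 with stattic (SE 0.19, adjusted p = 0.0117). On the log2(FPKM + 1) scale neither call held (adjusted p = 0.504 and 0.123 by limma), and the IL-10 call was lost without any 1 vehicle library, hemin replicate 2, IL-10 replicate 1 or IL-10 replicate 2 (0.0521 to 0.121), under library totals (0.0879) and with no low-count filter (0.0622). The stattic call was lost without vehicle replicate 1 (0.0548) or vehicle replicate 3 (0.0519) and with only the 2 groups compared (0.0559). Atg5, the partner of ATG12, differed by 0.44, 0.49 and 0.61 (adjusted p = 0.153, 0.116 and 0.0511), with all 9 libraries with hemin above vehicle. Atg12 differed by 0.16, 0.50 and 0.47, and Atg7, the shared E1-like enzyme, by -0.26, -0.26 and -0.03, none called.

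Of the 3 MiT/TFE factors, Tfe3 was called in the hemin and IL-10 groups. It stood at 42.4, 48.1 and 39.4 CPM in vehicle and at 91.4, 67.4 and 57.6 with hemin. It stood at 97.7, 69.4 and 62.2 CPM with IL-10 and at 76.5, 59.2 and 73.1 with stattic, all above vehicle. The log2 change of Tfe3 was 0.74 (SE 0.24, adjusted p = 0.0444), 0.82 (SE 0.24, adjusted p = 0.03) and 0.68 (SE 0.24, adjusted p = 0.052). The hemin call was lost under 13 of the 24 alternatives, among them without any 1 vehicle library, without hemin replicate 1, hemin replicate 2 or IL-10 replicate 2 (adjusted p from 0.0673 to 0.168) and under library totals (0.0629). The IL-10 call was lost without any 1 vehicle library, IL-10 replicate 1 or IL-10 replicate 2 (0.0602 to 0.129) and by limma on log2(FPKM + 1) with no low-value filter (0.0628).

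Tfeb, the best known regulator of lysosomal genes, was low: 14.6, 12.5 and 9.81 CPM in vehicle and 5.45, 7.58 and 11.9 with hemin. It stood at 3.35, 9.27 and 7.17 CPM with IL-10, all below vehicle, and at 6.39, 10.8 and 23.6 with stattic. Its log2 change was -0.56, -0.90 and 0.14, with adjusted p of 0.45, 0.223 and 0.856. Mitf stood at 11.4, 13.2 and 10.5 CPM in vehicle and 8.13, 9.43 and 13.7 with hemin. It stood at 8.42, 10.2 and 13.2 CPM with IL-10 and 7.23, 20.7 and 6.36 with stattic, overlapping vehicle in every group. By FPKM, Mitf was the lowest of the 36 genes in all 4 groups; Tfeb held rank 34 in vehicle and rank 35 in each other group. These factors are controlled largely by their place in the cell, which RNA does not show.

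None of the 4 lysosomal membrane genes was called by edgeR in any comparison, and the number at an unadjusted p under 0.05 was 0 with hemin, 0 with IL-10 and 1 with stattic. Lamp1, the most abundant lysosomal membrane protein gene here, stood at 628, 695 and 470 CPM in vehicle and at 703, 818 and 595 with hemin. It stood at 942, 993 and 558 CPM with IL-10 and at 968, 943 and 988 with stattic, the last above every vehicle library. Its log2 change was 0.24, 0.48 and 0.69 (adjusted p = 0.555, 0.224 and 0.0755). Lamp2, needed for fusion of autophagosomes with lysosomes, stood at 202, 213 and 145 CPM in vehicle and at 278, 266 and 170 with hemin. It stood at 292, 295 and 174 CPM with IL-10 and at 325, 246 and 203 with stattic, with replicate 3 the lowest of each group and overlap with vehicle throughout. Mcoln1, the calcium channel whose promoter is printed above, differed by 0.31, 0.12 and 0.60, and the cholesterol exporter Npc1 by -0.49, -0.16 and -0.34. The summed FPKM of the 4 genes was 441 ± 80.7 in vehicle and 461 ± 57.2, 528 ± 139 and 560 ± 71.9 in the groups with hemin (SD, n = 3). Lamp1 ranked 1 among the 36 genes by FPKM in vehicle and 3 in each other group.

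Of the 7 hydrolase and carrier genes, 2 were called with hemin (Gla and Hexa), 2 with IL-10 (Gla and Ctsd) and 4 with stattic (Gla, Hexa, Ctsd and Npc2), all higher. These are 28.6%, 28.6% and 57.1% of the 7, beside 11.7%, 12.1% and 14.7% of all genes, and the median log2 changes were 0.77, 0.79 and 1.17 beside 0.031, 0.003 and 0.099. Gla, the alpha-galactosidase that removes galactose from glycolipids, stood at 7.89, 7.95 and 8.47 CPM in vehicle and at 22.5, 41.8 and 23.3 with hemin. It stood at 43.5, 52.3 and 21.9 CPM with IL-10 and at 32.8, 51.8 and 26.4 with stattic. The lowest library with hemin, at 21.9 CPM, lay above the highest vehicle library, at 8.47 CPM. The log2 rise of Gla was 1.85 with hemin (SE 0.38, adjusted p = 0.00665), 2.27 with IL-10 (SE 0.38, adjusted p = 0.00264) and 2.19 with stattic (SE 0.38, adjusted p = 0.00299), and these calls held under all 24 alternatives. Gla remained a low gene per length, from 3.00 ± 0.122 FPKM in vehicle to 13.2 ± 5.16 with IL-10 (SD, n = 3).

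Hexa, the alpha subunit of the hexosaminidase that degrades GM2 ganglioside, stood at 48.2, 45.3 and 35.2 CPM in vehicle and at 99.9, 95.5 and 69.6 with hemin. It stood at 83.8, 94.1 and 57.6 CPM with IL-10 and at 83.7, 65.5 and 140 with stattic, all above vehicle. Its log2 change was 1.04 (SE 0.30, adjusted p = 0.0282), 0.87 (SE 0.30, adjusted p = 0.0553) and 1.17 (SE 0.30, adjusted p = 0.0166). The hemin call was lost without any 1 vehicle library, hemin replicate 1 or hemin replicate 2 (adjusted p from 0.0644 to 0.106) and the stattic call without vehicle replicate 3 (0.069) or with only the 2 groups compared (0.0508). Ctsd, the aspartic protease cathepsin D, stood at 366, 393 and 220 CPM in vehicle and at 1017, 770 and 423 with hemin. It stood at 1136, 841 and 397 CPM with IL-10 and at 1025, 950 and 865 with stattic, again with no overlap with vehicle. The log2 change of Ctsd was 1.17 (SE 0.40, adjusted p = 0.0579), 1.28 (SE 0.41, adjusted p = 0.0429) and 1.54 (SE 0.41, adjusted p = 0.0191). The hemin value passed without hemin replicate 3 (0.034) or IL-10 replicate 3 (0.0315). It also passed by DESeq2, with the replicate block and with only the 2 groups compared, 5 of the 24 alternatives in all. The IL-10 call was lost without any 1 vehicle library, hemin replicate 2, IL-10 replicate 1 or IL-10 replicate 2 (0.0622 to 0.165). It was also lost under library totals (0.0562), limma-voom (0.0527), the limma fits on FPKM (0.0766 to 0.109) and the length correction (0.0515), 12 of the 24 alternatives in all. The stattic call of Ctsd was lost without vehicle replicate 1 (0.0574) or vehicle replicate 3 (0.0806).

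Npc2, the lumenal sterol carrier, stood at 160, 162 and 136 CPM in vehicle and at 269, 277 and 228 with hemin. It stood at 228, 277 and 266 CPM with IL-10 and at 239, 316 and 544 with stattic, all above vehicle. The log2 change of Npc2 was 0.76, 0.75 and 1.26, called in the stattic group (SE 0.28, adjusted p = 0.00846). Ctsb, the cysteine protease cathepsin B, stood at 503, 512 and 255 CPM in vehicle and at 811, 660 and 400 with hemin. It stood at 718, 629 and 302 CPM with IL-10 and at 855, 770 and 768 with stattic, the last above every vehicle and every IL-10 library. Ctsl, cathepsin L, stood at 139, 189 and 94.8 CPM in vehicle and at 269, 289 and 161 with hemin. It stood at 320, 264 and 145 CPM with IL-10 and at 359, 244 and 222 with stattic. In both cathepsins vehicle replicate 3 was the lowest of the 12 libraries and the hemin and IL-10 groups overlapped vehicle. Ctsb differed by 0.56, 0.38 and 0.91 and Ctsl by 0.77, 0.79 and 0.96, none called. With hemin, Ctsl passed under 1 of the 24 alternatives, the replicate block (adjusted p = 0.0301 in edgeR's fit). Neu1, a sialidase, differed by -0.05, 0.15 and 0.48. Summed FPKM of the 7 genes was 562 ± 157 in vehicle, 962 ± 267 with hemin, 941 ± 329 with IL-10 and 1133 ± 130 with stattic (SD, n = 3).

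Markers of microglia and macrophages, cells rich in lysosomes, and of fibroblasts and vessels were read beside these results. The summed level of 15 microglia and macrophage markers ran from 15.7 to 59.8 CPM in vehicle, from 100 to 361 with hemin, from 49 to 92.2 with IL-10 and from 150 to 283 with stattic. Of the 14 tested, 6 were called higher with hemin, 1 with IL-10 and 9 with stattic (42.9%, 7.14% and 64.3%, beside 11.7%, 12.1% and 14.7% of all genes), and none was at 0 in all libraries of a group. Markers of fibroblasts and vessels summed to 8.59 to 23.3 CPM in vehicle, 81 to 377 with hemin, 27.2 to 91.4 with IL-10 and 44.9 to 121 with stattic, and 6, 2 and 4 of the 9 tested were called higher. Hemin replicate 1 was the highest of its group for both lists and for Ctsb, Ctsd and Hexa, while Gla, Ctsl and Npc2 were highest in hemin replicate 2 and Neu1 in hemin replicate 3. In the stattic group the microglial sum was highest in replicate 2, where Gla was highest of its group (51.8 CPM) and Hexa lowest (65.5 CPM). The part of such cells in the hydrolase results was not tested.

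Change also went with transcript length. With all genes in 5 groups by length, the shortest group stood at a median of 1.13 relative to the vehicle mean and the longest at -0.86 (log2) in stattic replicate 3, and at 0.47 and -0.46 in hemin replicate 1. Among the 36 genes, Spearman's rho of log2 change with length was -0.52, -0.41 and -0.61 in the 3 comparisons with vehicle, beside -0.22, -0.15 and -0.37 over all genes, given as a description over genes that share libraries. Gabarapl2, Map1lc3a and Gabarap are the shortest members (996, 1063 and 1122 bases) and Ulk2 the longest (5892 bases). With each library's length trend removed, the stattic changes of Map1lc3a and Gabarap were 1.05 and 0.77 in place of 1.75 and 1.38, both still called (adjusted p = 0.0081 and 0.0139 in edgeR's test). Ulk2 was at -1.09, -0.92 and -0.88 after the correction, Sqstm1 at 3.42, 4.18 and 3.70, and Gla at 1.86, 2.28 and 2.18, each still called. The cause of the length trend was not tested.

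**Figure D4:**
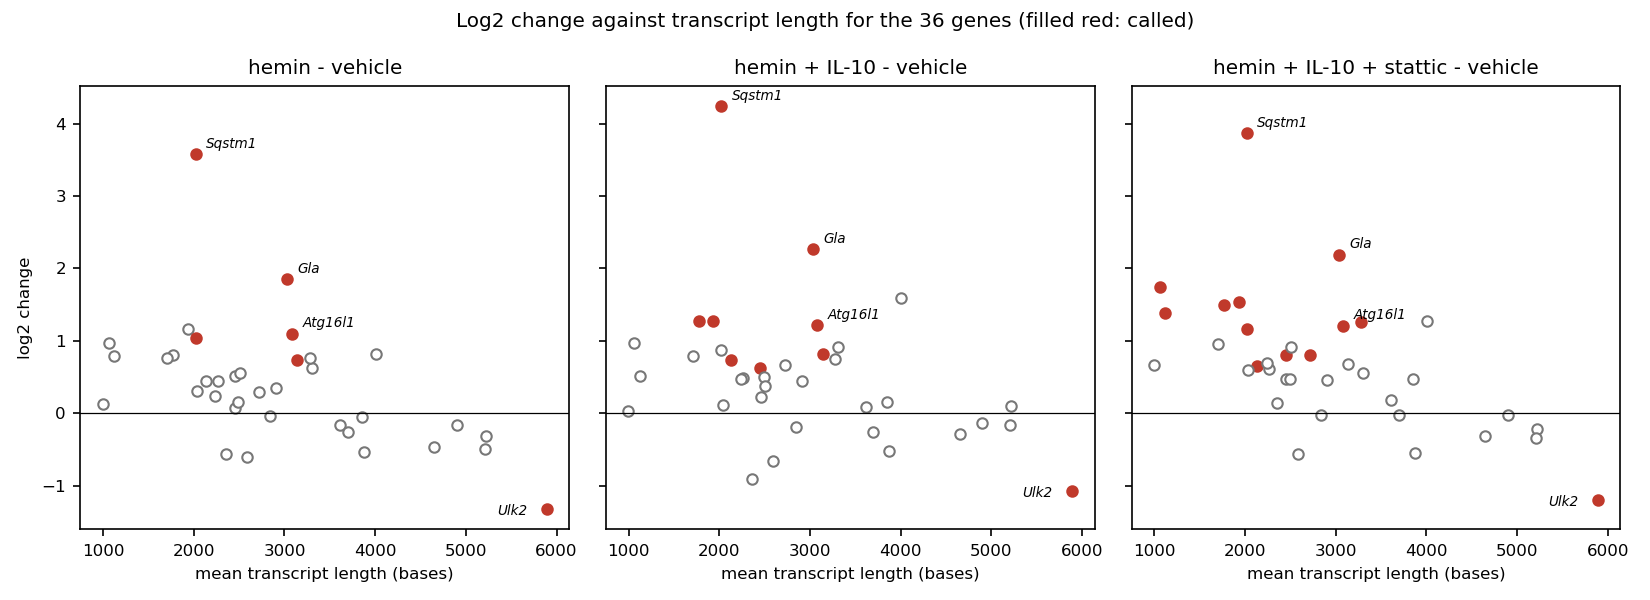
Log2 change against vehicle (y axis) by mean transcript length in bases (x axis) for the 36 genes; filled red points are called. Ulk2, at 5892 bases, is at the lower right of each panel; Sqstm1 and Gla lie far above other genes of like length.

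No member was called by edgeR when IL-10 was added to hemin, nor when stattic was added to hemin with IL-10. For IL-10 against hemin, 0 of 36 members were called (0% higher and 0% lower of all genes tested), and 0 had an unadjusted p under 0.05 beside 2.41% of all genes. DESeq2, limma-voom and limma on FPKM also called 0 members. The 36 log2 differences ran from -0.33 to 0.77 with a median of 0.11, beside -0.006 over all genes, and 25 were above 0. The 3 smallest p-values were those of Gabarapl1 (0.46, 95% interval -0.13 to 1.05), Becn1 (0.29, interval -0.08 to 0.65) and Optn (0.37, interval -0.14 to 0.87), each with adjusted p = 0.999 in edgeR's fit. Becn1 and Nbr1 were higher in all 3 IL-10 libraries than in any hemin library (2 of 36, beside 3.61% of all genes; 0 were lower in all 3, beside 5.08%), with 253, 243 and 232 CPM for Nbr1 against 209, 208 and 227. For Sqstm1 the difference was 0.66 with an interval from -0.87 to 2.20, the widest of the 36 intervals. Read by same-numbered pairs, 8 members were higher with IL-10 in all 3 pairs (22.2% of 36, beside 19.3% of all genes): Sqstm1, Nbr1, Gabarapl1, Becn1, Ulk2, Wipi2, Tfe3 and Lamp2. Another 4 were lower in all 3 pairs (beside 18.2% of all genes): Calcoco1, Mcoln1, Ctsb and Hexa. With the replicate number as a block, Sqstm1 was at 0.57 (interval -0.44 to 1.57), Gabarapl1 at 0.46 (-0.05 to 0.96) and Wipi2 at 0.70 (0.00 to 1.40), each with adjusted p = 0.864 in edgeR's fit.

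For stattic with IL-10 and hemin against IL-10 with hemin, 0 of 36 were called by edgeR, DESeq2, limma-voom or limma on FPKM, as were 0% of all genes higher and 0% lower. Unadjusted p was under 0.05 for 2 members, beside 3.74% of all genes. These were Gabarap (0.86, 95% interval 0.16 to 1.56) and Gabarapl2 (0.64, interval 0.07 to 1.22), followed by Tfeb (1.04, interval -0.05 to 2.13), each with adjusted p = 0.921 in edgeR's fit. In all 3 genes the highest stattic library was replicate 3, the library with the steepest length trend, and the groups overlapped; after the length correction Gabarap was at 0.41, Gabarapl2 at 0.20 and Tfeb at 0.88. Ctsb alone was higher in every stattic library than in any IL-10 library (1 of 36, beside 3.15% of all genes; 0 were lower, beside 2.21%), with a log2 difference of 0.54 (interval -0.27 to 1.35). For Sqstm1 the difference was -0.38 with an interval from -1.91 to 1.15. Intervals of this width do not show that the 3 hemin-containing groups were alike.

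**Figure D5:**
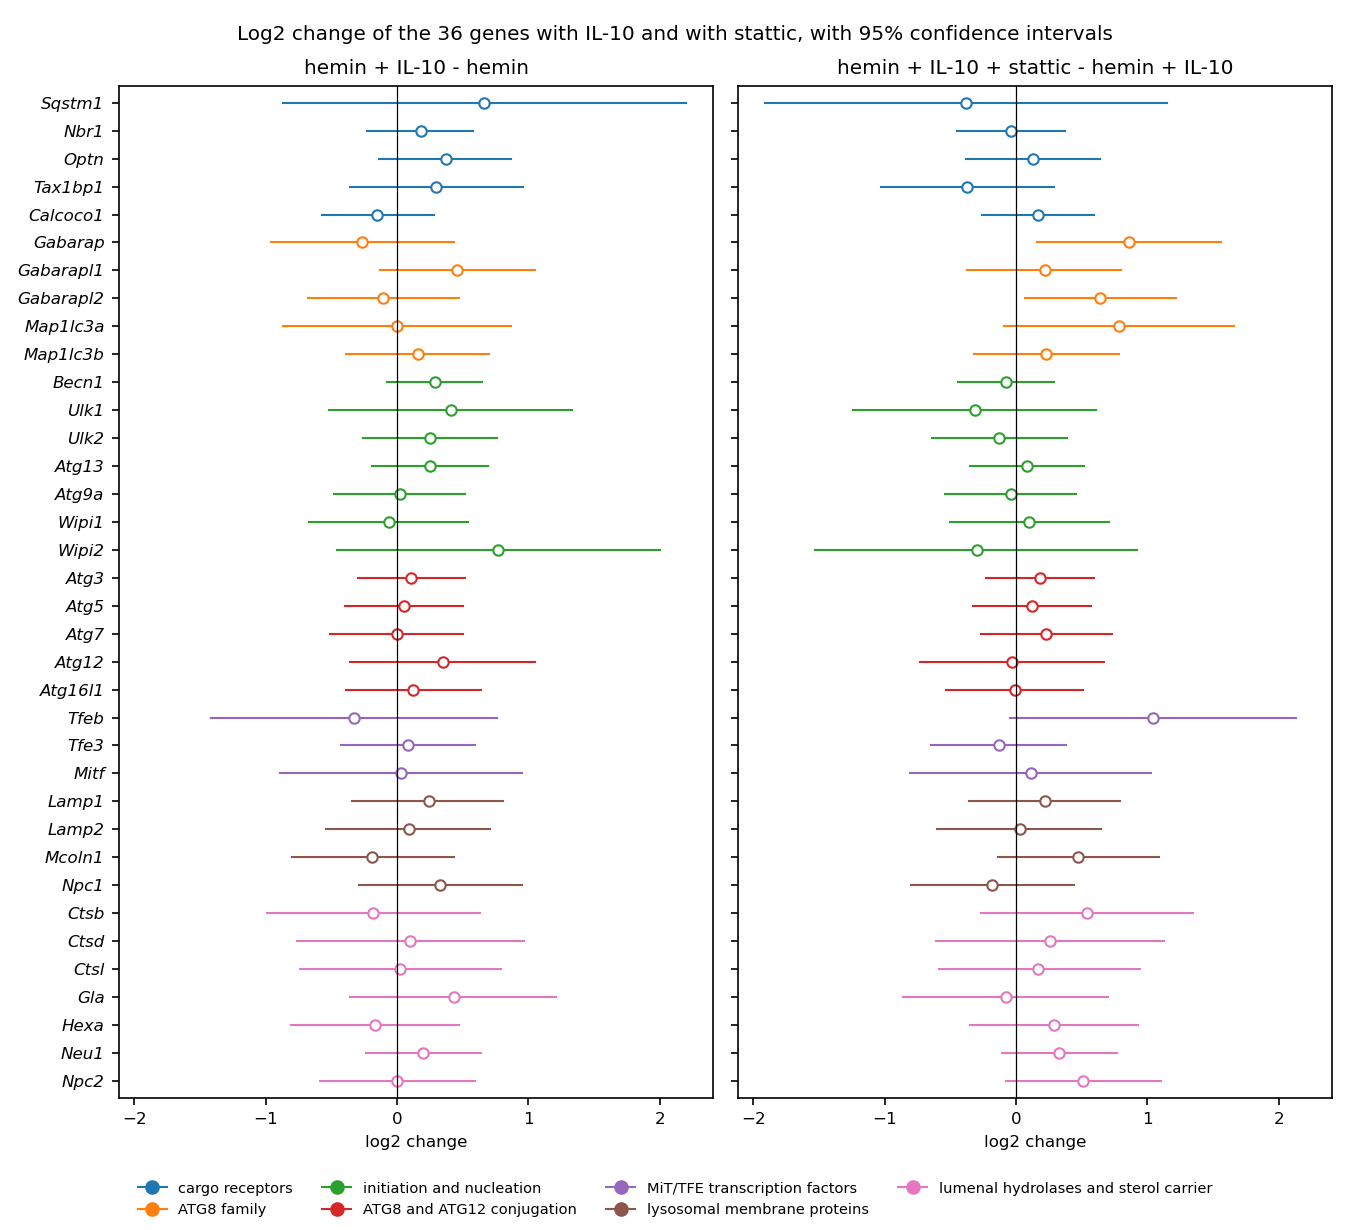
Log2 difference of each of the 36 genes (x axis) for IL-10 with hemin against hemin, and for stattic with IL-10 and hemin against IL-10 with hemin, with 95% confidence intervals; no point is filled because none was called. In the stattic panel the intervals of Gabarap and Gabarapl2 lie above 0 before adjustment.

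A further 130 genes of the same pathway were read from 6 lists. With hemin 13 rose and 12 fell (10% and 9.23%, against 11.7% and 9.15% of all genes), with IL-10 18 and 11 (13.8% and 8.46%, against 12.1% and 8.81%), and with stattic 29 and 12 (22.3% and 9.23%, against 14.7% and 10.2%). For hemin these counts became 7 and 3 without vehicle replicate 1, 7 and 5 without vehicle replicate 2, 6 and 4 without vehicle replicate 3, 9 and 7 without hemin replicate 1, 5 and 2 without hemin replicate 2, 13 and 7 without hemin replicate 3, and 21 and 20 without stattic replicate 3; 8 fell without IL-10 replicate 2. For IL-10 they ran from 6 and 2 without vehicle replicate 1 to 27 and 16 without stattic replicate 3, with 9 and 5 without vehicle replicate 2, 10 and 4 without vehicle replicate 3, 9 and 6 without IL-10 replicate 1 and 6 and 3 without IL-10 replicate 2. For stattic they were 16 and 1, 15 and 4, and 14 and 3 without vehicle replicates 1, 2 and 3, and 25 and 4 without stattic replicate 2. The calls over all genes moved too. With hemin they went from 1639 higher and 1278 lower to 803 and 567 without vehicle replicate 1. They were 867 and 442 without hemin replicate 2, and 2287 and 1969 without stattic replicate 3. With IL-10 they went from 1696 and 1231 to 724 and 478 without vehicle replicate 1, and 2403 and 1824 without stattic replicate 3. With stattic they went from 2048 and 1424 to 916 and 692 without vehicle replicate 1. No gene of the lists was called by edgeR for IL-10 against hemin or for stattic against IL-10, as was none of all genes tested. At an unadjusted p under 0.05 in edgeR's fit there were 3 and 12 of the 130, beside 2.41% and 3.74% of all genes.

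Of the 25 further autophagy genes, 4 rose with hemin and 2 fell (16% and 8%, beside 11.7% and 9.15% of all genes). Vmp1, which encodes a membrane protein of autophagosome formation, stood at 56, 67.2 and 61.2 CPM in vehicle and 123, 144 and 219 with hemin (log2 1.40, adjusted p = 0.0033), and at 1.30 and 1.41 in the other groups. By limma on log2(FPKM + 1) the stattic call of Vmp1 was lost (0.58, adjusted p = 0.0599), and with no low-value filter the IL-10 call too (0.69, 0.0512). Atg14, the autophagy-specific subunit of the Beclin 1 complex, rose by 1.18, 1.33 and 1.27, with the hemin call lost without hemin replicate 2 (adjusted p = 0.0584). Tmem41b, a partner of Vmp1 in lipid movement, rose by 1.03 with hemin (lost without vehicle replicate 2, 0.0598, and by limma on log2(FPKM + 1) with no low-value filter, 0.0605). Pik3r4, a regulatory subunit of the same lipid kinase, fell by 0.84, a call lost on leaving out hemin replicate 2, hemin replicate 3, IL-10 replicate 2 or any 1 vehicle library (adjusted p from 0.0515 to 0.112) and under the length correction (0.062). Of the 15 organelle receptors 1 rose with hemin (6.67%), and Tex264, a receptor for the endoplasmic reticulum, rose by 0.84, 0.77 and 0.96. Under the length correction it was at 0.62, 0.64 and 0.60 and not called in any of the 3 (adjusted p = 0.0868, 0.0753 and 0.0993); its IL-10 call was lost under 13 of the 24 alternatives and its stattic call also with only the 2 groups compared (0.0625). Its hemin call was lost on leaving out vehicle replicate 1, vehicle replicate 3, hemin replicate 1 or hemin replicate 2 (0.0718 to 0.119), its IL-10 call without 7 of the 12 libraries in turn, including each vehicle library, both of those hemin libraries and IL-10 replicates 1 and 2 (0.052 to 0.153), and its stattic call without vehicle replicate 3 (0.0685). Fundc1, a mitophagy receptor, fell by 0.96 with IL-10, not called without vehicle replicate 1 or 3 or IL-10 replicate 1 or 2 (0.0618 to 0.0921). Bnip3, another mitophagy receptor, rose by 0.72 with stattic, not called without vehicle replicate 2 (0.0798) or 3 (0.0795). Bnip3 was also not called under library totals (0.0881), the length correction (0.38, 0.111), the limma fits on FPKM (0.0742 to 0.0882) or with only the 2 groups compared (0.0764), 8 of the 24 alternatives in all.

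The proton pump that acidifies lysosomes had 2 of 16 subunit genes higher with hemin, 4 with IL-10 and 8 with stattic, and 0 lower. These are 12.5%, 25% and 50% of the 16, beside 11.7%, 12.1% and 14.7% of all genes, so the hemin share is near that of all genes. Atp6v1h stood at 104, 105 and 96.9 CPM in vehicle and 228, 249 and 153 with hemin, and rose by 1.04, 1.52 and 1.49 (adjusted p = 0.0203, 0.00409 and 0.00411 in edgeR's test). Atp6v1c1 rose by 0.76 with hemin and 0.94 with IL-10, and Atp6v1d by 0.91 with stattic. Without any 1 vehicle library, hemin replicate 1 or hemin replicate 2, neither Atp6v1h nor Atp6v1c1 was called with hemin (adjusted p from 0.0512 to 0.151 in edgeR's fit), and 6 subunit genes were called without stattic replicate 3. Both hemin calls were also lost in the limma fits on FPKM (0.0523 to 0.0882), and that of Atp6v1c1 under library totals (0.0655) and the length correction (0.0683). The IL-10 count was 1 without vehicle replicate 1 or IL-10 replicate 2, when Atp6v1c1 was at 0.0596 and 0.0647. It was 2 without vehicle replicate 2 or 3, IL-10 replicate 1 or any 1 hemin library, and the stattic count ran from 6 to 8 over all 12 omissions. Of the 33 further enzymes, 3 rose and 2 fell with hemin (9.09% and 6.06%, beside 11.7% and 9.15% of all genes), among them Ctsh, Ctsz and Scpep1, all proteases, by 2.64, 2.00 and 1.49, and the sulfatase Ids by -0.86 (log2). Ctsh was low, at 2.23, 1.1 and 1.33 CPM in vehicle and 19.1, 6.25 and 3.91 with hemin. Ctsz stood at 14.9, 13.2 and 7.9 CPM in vehicle and at 92.8, 29.8 and 21.9 with hemin. Both were highest in hemin replicate 1, the library with the highest microglial marker sum. Without vehicle replicate 3 Ctsz (0.0544) and Ids (0.0522) were not called with hemin, nor Scpep1 (0.0505) and Ids (0.0537) without hemin replicate 2. Scpep1 also rose with IL-10 (1.91) and stattic (1.72), Ids fell by 1.07 with stattic, and Sgsh, a heparan sulfatase, fell by 1.73 with IL-10.

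Of the 17 further membrane and sorting genes, 4 fell with hemin and 1 rose (23.5% and 5.88%, beside 9.15% and 11.7% of all genes). Scarb2, which carries glucocerebrosidase to lysosomes, stood at 324, 347 and 263 CPM in vehicle and 181, 145 and 147 with hemin, a log2 fall of 0.98 (adjusted p = 0.0104, and 0.0551 without hemin replicate 2). Gnptab, which makes the mannose 6-phosphate tag of lysosomal enzymes, fell by 0.97 (not called without vehicle replicate 1, 0.0511, or hemin replicate 2, 0.0637). Slc17a5, the sialic acid exporter, fell by 0.83, a call lost without any 1 vehicle or hemin library (0.0624 to 0.118) and without the 2 libraries of steepest length trend (0.0518). With IL-10, Scarb2 fell by 0.93, not called without vehicle replicate 1 (0.0584) or 2 (0.0569). Laptm4b rose by 0.72, 0.89 and 1.00, and Cd63, a tetraspanin, by 1.29 with stattic; under the length correction Cd63 was at 0.71 and not called (adjusted p = 0.0572). The hemin call of Laptm4b was lost without any 1 vehicle, hemin or IL-10 library (0.0548 to 0.154), with no low-count filter (0.0607) and by limma on log2(FPKM + 1) with no low-value filter (0.0524), and the IL-10 call without vehicle replicate 1, vehicle replicate 2 or IL-10 replicate 2 (0.0584 to 0.0727). The kinase complex mTORC1 holds autophagy back when nutrients are ample. The 24 genes of mTORC1 and Rag control include both activators and inhibitors of it, so their counts give no direction. With hemin, 2 rose and 4 fell (8.33% and 16.7%, beside 11.7% and 9.15% of all genes). Rheb, the GTPase that activates mTORC1, stood at 67.4, 75.8 and 80.4 CPM in vehicle and 247, 235 and 188 with hemin. It rose by 1.58, 1.59 and 1.68 (adjusted p = 0.000563, 0.000635 and 0.000441 in edgeR's test). Mlst8, a subunit of mTORC1, fell by 1.38 and Sesn3 by 1.04 with hemin, the latter not called without vehicle replicate 1 (0.0569) or 3 (0.0556). Lamtor3, part of the complex that anchors Rag proteins to the lysosome, rose by 0.92 with stattic, not called without vehicle replicate 1 (0.0732), under the length correction (0.53, 0.198) or by limma on log2(FPKM + 1) with no low-value filter (0.0623). Sesn2, a stress-induced inhibitor of mTORC1, stood at 57.2, 69.6 and 53.9 CPM in vehicle and 308, 386 and 125 with hemin, a log2 rise of 2.18 (adjusted p = 0.0178), with 2.65 in the IL-10 group. Its hemin call was lost without any 1 vehicle library or hemin replicate 2 (0.0524 to 0.0731), and by limma on log2(FPKM + 1) with no low-value filter (0.053).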

How the data were processed

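RNA-seq of 12 libraries in 4 groups of 3, grouped by the sample titles, was read from 1 table per library. Expected counts per gene, as deposited by the authors per the file headers, are estimates that need not be whole and were rounded to whole numbers. FPKM, deposited by the authors in the same tables per the file headers, is scaled to transcript length and depth. The submitters' processing notes name CASAVA, HISAT, StringTie, TopHat, Cufflinks, Bowtie, Bowtie2 and RSEM without versions or roles; the genome build and any use of strand in counting are not given in the sources used here. Reads of a gene and an overlapping antisense gene cannot be told apart.

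Counts were fitted with edgeR 4.0.16 in R 4.3.3 (filterByExpr, TMM, robust quasi-likelihood fit over all 12 libraries, 1 mean per group), with Benjamini-Hochberg adjustment over 13967 genes and a threshold of 0.05. Errors are SD between libraries or the standard error of the fit. Totals of 9404448 to 10266653 leave at least 31 counts for the lowest member (Tfeb) in any library. No pair of replicates agreed within counting noise, so each was kept as a sample. Alternatives were other scalings, filters, DESeq2 1.42.0, limma 3.58.1 on counts and on log2(FPKM + 1) or log2(FPKM + 0.1), a replicate block, a length correction, fewer groups and leaving out each library.

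The members, gene lists and motifs were chosen with earlier results of these data known. Genes given with every library's value are those called in any comparison, Sqstm1, the MiT/TFE factors, Lamp1, Lamp2, Ctsb, Ctsd, Ctsl and the ATG8 family; where none is called, the 3 with the smallest p are named. From each further list the text names up to 4 called genes with the smallest adjusted p for hemin and up to 2 for the other comparisons. The labels give the groups shared replicate numbers without saying what they share; for IL-10 against hemin, same-numbered libraries deviated together from their group means (correlations 0.374, 0.17 and 0.61). Protein sequence was not used here.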

Additional observations from a re-analysis of the deposited data

How the results depend on the processing

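Sqstm1 and Gla were called against vehicle in all 3 comparisons under each of the 24 alternatives, as were Ulk2 with hemin and stattic, Gabarapl1 and Atg16l1 with IL-10 and stattic, and Map1lc3a and Npc2 with stattic. The number of members called depended more on the setting. With hemin, 5 rose; the number was 10 by the DESeq2 test, 9 without the 2 libraries of steepest length trend, 13 with only the 2 groups compared, and from 2 to 11 over leave-one-out fits. The 1 that fell became 2 by DESeq2 and with only the 2 groups, and 1 to 2 over leave-one-out fits. With IL-10, 8 rose; the number was 13 by DESeq2, 5 by limma on log2(FPKM + 1) and on log2(FPKM + 0.1), 4 with no low-value filter, 15 without the 2 steepest libraries and 15 with only the 2 groups, and from 4 to 14 over leave-one-out fits, with 0 to 1 lower. With stattic, 12 rose; 7 did with only the 2 groups compared, and from 7 to 15 over leave-one-out fits. The 1 lower there became 2 under library totals, 2 by limma on log2(FPKM + 1) with or without the filter, and 3 with 0.1 added. The split of calls over all genes against vehicle, higher and lower, went with stattic from 2048 and 1424 to 1414 and 2208 under library totals and 946 and 2358 by limma on log2(FPKM + 1). With hemin it went from 1639 and 1278 to 955 and 1650 by the latter. By DESeq2, 2189, 2232 and 2595 of 13967 genes were called higher with hemin, IL-10 and stattic, beside 1639, 1696 and 2048 by edgeR. Without the 2 steepest libraries the numbers were 2066, 2572 and 2329 of 14156. With only the 2 groups compared they were 2233 of 13320, 2339 of 13177 and 958 of 13173. By limma on log2(FPKM + 1), 895 of 12693 genes were called higher with IL-10.

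With the replicate block, 9 members rose with hemin in place of 5, 11 with IL-10 and 18 with stattic. The block changed no other count of members, and none was called for IL-10 against hemin or for stattic against IL-10. Over all 13967 genes, 2167, 2102 and 2438 were called higher against vehicle with the block, in place of 1639, 1696 and 2048. The numbers were read as pairs only for IL-10 against hemin, where the lowest correlation between same-numbered libraries was 0.17. It was 0.078, 0.045 and 0.096 for hemin, IL-10 and stattic against vehicle, and -0.046 for stattic against IL-10. The libraries that correlated best with their own number were 4 of 6 for IL-10 against hemin. They were 4, 2 and 4 of 6 against vehicle and 4 of 6 for stattic against IL-10, so this count does not set the paired comparison apart. Whether the numbers mark pairs was not tested.

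With hemin, uncalled changes near 0 reversed for Mitf (0.02 under the length correction), Gabarapl2 (-0.18, same setting) and Map1lc3b. Map1lc3b was at -0.03 under library totals, -0.05 in the 3 limma fits on FPKM, -0.01 without the 2 steepest libraries, and from -0.01 to 0.22 over leave-one-out fits. The causes were not tested. Depth was close to equal between libraries, and the precision is limited by 3 libraries a group.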
